A study of Mus musculus with 20 samples.

Results

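Chemokines are small secreted or membrane-bound proteins that guide leukocytes along gradients, and they act through receptors with 7 membrane-spanning helices that signal through inhibitory G proteins. Ligands carry the prefix Ccl, Cxcl or Cx3cl and receptors Ccr, Cxcr or Cx3cr, after the spacing of their first cysteines. The atypical receptors (Ackr) bind chemokines without G protein signalling and remove or present them. In obese fat, chemokines are known for the recruitment of monocytes, which become the macrophages that surround dying adipocytes. The genes of this system were taken by symbol from the RNA-seq table of epididymal white adipose tissue (eWAT): every symbol that starts with Ccl, Cxcl, Ccr, Cxcr, Cx3cr or Ackr and a digit, plus Cx3cl1, Pf4, Ppbp and Xcr1. The genes described are 31 of the 14776 in the table, namely 20 ligands, 8 receptors and 3 atypical receptors. Ppbp, Xcr1, Ccl2, Ccl3 and Ccl7 were not analysed here.

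The eWAT, the fat pad beside the epididymis, came from 20 male C57BL/6J mice whose diets started at 6 weeks of age. The normal chow group (NC, n = 6) was fed maintenance feed, and the HFD group (n = 7) was fed a high-fat diet and given saline. The SZ-A group (n = 7) was fed the same high-fat diet and, after 14 weeks, received Ramulus Mori (Sangzhi) alkaloids, an extract of mulberry twig, by gavage at 400 mg/kg per day for 6 weeks. Values were FPKM, fragments per kilobase of exon scaled to library size, so levels of different genes can be compared per length. Whole tissue of males was measured at a single time, and no group fed chow received SZ-A. The 2 questions were what the high-fat diet did to these genes and what SZ-A did to them on top of that diet. The HFD mice serve in both comparisons, so the 2 sets of differences are not independent and are given side by side.

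Reads on the table came to between 13567667 and 19388628 per mouse. Some libraries stood apart. NC replicate 6 had a median Spearman correlation of 0.758 with the other NC mice, the lowest of all, and was the lowest NC mouse for 18 of the 31 genes. Its 8 adipocyte markers summed to 234.3 FPKM, against 4001 to 9725 in the other NC mice, 1335 to 5665 in HFD mice and 3687 to 10600 in SZ-A mice, and Bmyc, 1 of 19 epididymis markers and the only one in the table, was at 139.7 FPKM, against at most 14.5 in any other mouse. SZ-A replicate 5 (median correlation 0.883) was the highest SZ-A mouse for 13 of the 31 genes and the lowest for 8. HFD replicate 1 was the highest HFD mouse for 17. Results that change without these mice are given with and without them.

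Of the 31 genes, 13 rose and 3 fell in HFD against NC mice at an adjusted p under 0.05 (limma on log2(FPKM + 1), Benjamini-Hochberg over all 14706 genes tested), where 21.0% of all genes rose and 20.1% fell. The median log2 fold change was 0.65 over the 31 genes and -0.04 over all genes. In SZ-A against HFD mice, 9 of the 31 fell and 1 rose, where 13.3% of all 14695 genes fell and 9.47% rose, and 24 of the 31 differences were below 0. That median was -0.19, against 0.03 over all genes. Between SZ-A and NC mice, 2 of the 31 were higher (Ccl9 and Ccr1) and 0 lower by limma, where 4.15% of all genes were higher and 0.455% lower. At an unadjusted p under 0.05 by the same fit 1 was lower (Cxcl10, log2 -0.43), and voom on recovered reads also called 0 lower. All 31 genes passed the filter of a mean of 0.1 FPKM in each comparison, and the smallest group mean, 0.176 FPKM for Ackr4 in HFD mice, was above it too. In whole tissue, fewer cells of a type and less RNA per cell cannot be told apart, for these and all later values.

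**Figure D1:**
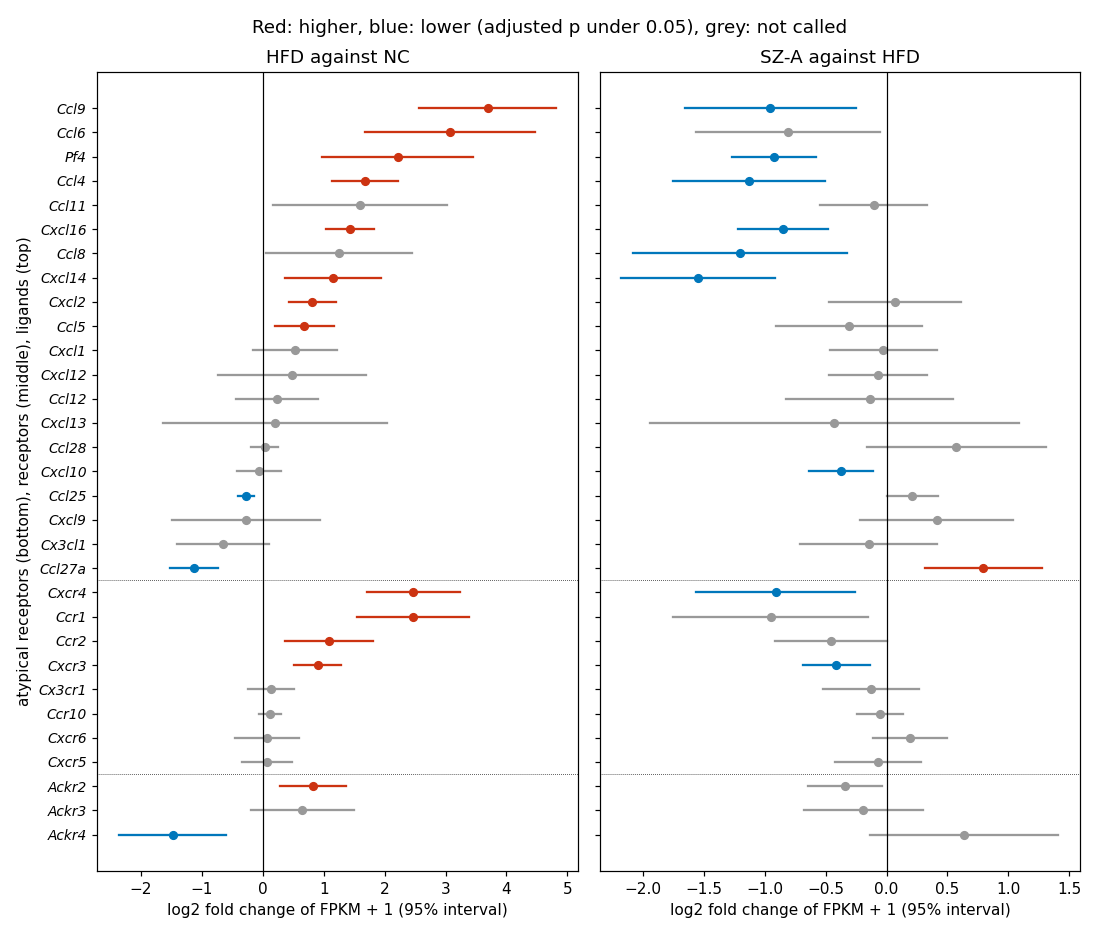
Log2 fold change of FPKM + 1 (points) with its 95% interval (lines) for the 31 genes, HFD against NC on the left and SZ-A against HFD on the right, ligands at the top, receptors in the middle and atypical receptors at the bottom. Red marks the genes that rose and blue those that fell at an adjusted p under 0.05, 13 and 3 on the left and 1 and 9 on the right.

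Groups that did not overlap were counted as well. In HFD mice, 8 of the 31 genes lay above every NC mouse (12.7% of all genes did) and 3 lay below every NC mouse (7.77%). Of the 31, only Cxcl14 lay below every HFD mouse in all SZ-A mice (4.01%), and 0 lay above (2.07%). Against NC mice, every SZ-A mouse was higher in Ccl9 alone (3.22%). With the log2 fold change above 1.5 that the study's methods also ask for, 6 of the 31 genes passed as higher in HFD mice (5.43%) and only Cxcl14 as lower in SZ-A mice (0.558%). Ccl9 and Ccr1 passed as higher in SZ-A than in NC mice (1.73%).

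Summed over the family, the 20 ligands came to 260 ± 145 FPKM in NC (mean ± SD, n = 6), 950.3 ± 344 in HFD (n = 7) and 599.9 ± 277 in SZ-A mice (n = 7). Ccl6 took the largest share of the summed means, 22.9% in NC, 37.6% in the HFD group and 38.2% in SZ-A. It was the most abundant ligand in every mouse except NC replicate 6, where Cx3cl1, Cxcl14 and Ccl27a led. The 8 receptors together were far lower, at 12.3 ± 6.82, 54.7 ± 19.4 and 30.9 ± 12.4 FPKM, and Cxcr4 alone made up 43.1%, 56.0% and 56.3% of that. Ccr2 was the next receptor in NC mice (18.5%), and Ccr1 in HFD (24.4%) and SZ-A mice (17.4%). The atypical receptors summed to 17.2 ± 7.92, 19.97 ± 5.93 and 18.3 ± 5.98 FPKM, mostly Ackr3.

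Ccl9 and Ccl6, which myeloid cells produce in mice, are ligands of Ccr1 and had the largest rises on the log2(FPKM + 1) scale. As a ratio of means, Ccr1 (10.3-fold) and Ccl4 (8.05-fold) were above Ccl6. Here and below, folds are ratios of group mean FPKM. The log2 values are differences of mean log2(FPKM + 1), so a fold and the log2 value beside it need not match. Ccl9 ranged from 2.23 to 50.7 FPKM in NC mice (median 18.8), from 160.4 to 461.3 in HFD mice (median 199.6) and from 73.3 to 309.4 in SZ-A mice (median 102.1). Every HFD mouse and every SZ-A mouse lay above every NC mouse, and 5 of the 7 SZ-A mice lay below every HFD mouse. The HFD mean was 10.5-fold that of NC (log2 fold change 3.69, SE 0.52, limma adjusted p = 1.0e-04), and the SZ-A mean was 0.554 of the HFD mean (log2 -0.96, SE 0.33, adjusted p = 0.0482 by the same test). SZ-A replicates 5 and 6, at 309.4 and 197.9 FPKM, were the 2 within the HFD range. The second difference sat at the threshold: it kept its direction but lost the call in 11 of 14 fits that left out 1 mouse each (adjusted p up to 0.1, without HFD replicate 1), all except those without HFD replicate 6, SZ-A replicate 5 or SZ-A replicate 6. Ccl9 remained 5.83-fold higher in SZ-A than in NC mice (log2 2.74, SE 0.56, limma adjusted p = 0.0122).

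Ccl6 followed the same order at a higher level. It ranged from 2.71 to 128.7 FPKM in NC mice (median 57.1), from 238.2 to 685.9 in HFD mice (median 316.3) and from 103.8 to 608.4 in SZ-A mice (median 162.4). The HFD and NC mice did not overlap, and the HFD mean was 6.02-fold that of NC (log2 3.07, SE 0.65, limma adjusted p = 0.00207). Without NC replicate 6 the difference was 2.38 (limma adjusted p = 8.5e-05). The SZ-A mice lay in 2 sets of values: 5 were below every HFD mouse, while replicates 5 and 6 were at 608.4 and 292.1 FPKM. The SZ-A difference did not pass the test (log2 -0.81, SE 0.35, 95% interval -1.56 to -0.06, limma adjusted p = 0.109). Without SZ-A replicate 5 it did (log2 -1.09, adjusted p = 0.00872).

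Ccl4 and Ccl5 are CC chemokines made by macrophages and by T and NK cells. Ccl4 stood at 0.0796 to 0.891 FPKM in NC mice (median 0.519), 2.05 to 8.46 in HFD mice (median 3.01) and 0.412 to 3.81 in SZ-A mice (median 0.873). These levels rest on 1 to 11 reads in NC, 24 to 86 in the HFD group and 5 to 35 in SZ-A mice. Every HFD mouse was above every NC mouse, and 6 of 7 SZ-A mice were below every HFD mouse. Ccl4 rose with HFD (log2 1.68, SE 0.25, limma adjusted p = 1.6e-04) and fell with SZ-A (log2 -1.13, SE 0.29, adjusted p = 0.0135 by limma), to 0.333 of the HFD mean. Ccl5 was higher in HFD mice (8.49 ± 3.05 FPKM, n = 7) than in NC mice (4.70 ± 1.10, n = 6), with a log2 fold change of 0.68 (limma adjusted p = 0.0275). That call was lost without HFD replicate 1 (adjusted p = 0.0544), 5 (0.0561) or 7 (0.0566). The SZ-A mice, at 6.95 ± 4.07 FPKM, spanned the whole HFD range, with an interval of -0.91 to 0.29 for the log2 difference.

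Cxcl14, Cxcl16 and Pf4 rose with HFD and fell with SZ-A. Cxcl14, a chemokine that epithelial and stromal cells make in many tissues, was the only member past the log2 threshold of 1.5 under SZ-A in the main fit. It was at 3.19 to 12.7 FPKM in NC mice (median 5.63), 6.35 to 31.4 in HFD mice (median 15.5) and 2.18 to 5.65 in SZ-A mice (median 4.52). All 7 SZ-A mice lay below all 7 HFD mice, whereas the HFD and NC ranges overlapped. The SZ-A mean was 0.272 of the HFD mean (log2 -1.55, SE 0.30, limma adjusted p = 0.00267, and an exact two-sided permutation test over the mice gave p = 0.000583, the smallest this design allows). HFD mice were 2.46-fold above NC mice (log2 1.16, SE 0.37, limma adjusted p = 0.0224), and NC replicate 6 held the highest NC value. The difference between SZ-A and NC was -0.39 with an interval of -1.02 to 0.23.

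Cxcl16, a transmembrane ligand of Cxcr6 that also takes up oxidised lipoproteins, was at 2.43 to 5.69 FPKM in NC (median 4.87), 10.7 to 21.3 in HFD (median 12.1) and 5.25 to 11.3 in SZ-A mice (median 6.09). Only SZ-A replicate 5 reached the HFD range. The rise with HFD was 3.07-fold (log2 1.43, SE 0.19, limma adjusted p = 4.9e-05), and with SZ-A the level fell to 0.527 of the HFD mean (log2 -0.85, SE 0.17, adjusted p = 0.00392, limma). Of its exon bases, 18.3% overlap Zmynd15 on the other strand, and the library kit does not mark strand, so reads of the 2 genes cannot be told apart there.

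Pf4, platelet factor 4, is stored in platelet granules and is also transcribed in macrophages. Its range was 2.19 to 74.4 FPKM in NC mice (median 39.3), 85.9 to 181.8 in HFD mice (median 143.6) and 60.1 to 91.5 in SZ-A mice (median 68.2). The HFD mice were all above the NC mice, and 6 of the 7 SZ-A mice were below every HFD mouse. Pf4 was 3.49-fold higher in HFD than in NC mice (log2 2.21, SE 0.57, limma adjusted p = 0.00767), with a difference of 1.58 without NC replicate 6 (adjusted p = 2.0e-04). It fell to 0.514 of the HFD mean with SZ-A (log2 -0.92, SE 0.16, adjusted p = 0.00179, limma), a call that was lost with all 3 groups in a single fit (adjusted p = 0.184). SZ-A replicate 5, at 91.5 FPKM, was the SZ-A mouse within the HFD range of Pf4. Replicate 6, at 65.1 FPKM, was below that range, unlike for Ccl6 and Ccl9. Of 7 megakaryocyte and platelet markers, 2 were in the table, and their sum had a median of 3.83 FPKM in NC, 1.10 in the HFD group and 0.863 in SZ-A mice. The 2 went opposite ways with HFD, 1 called higher and 1 lower by limma, and 0 were called with SZ-A. Their sum is therefore not a measure of platelets here.

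**Figure D2:**
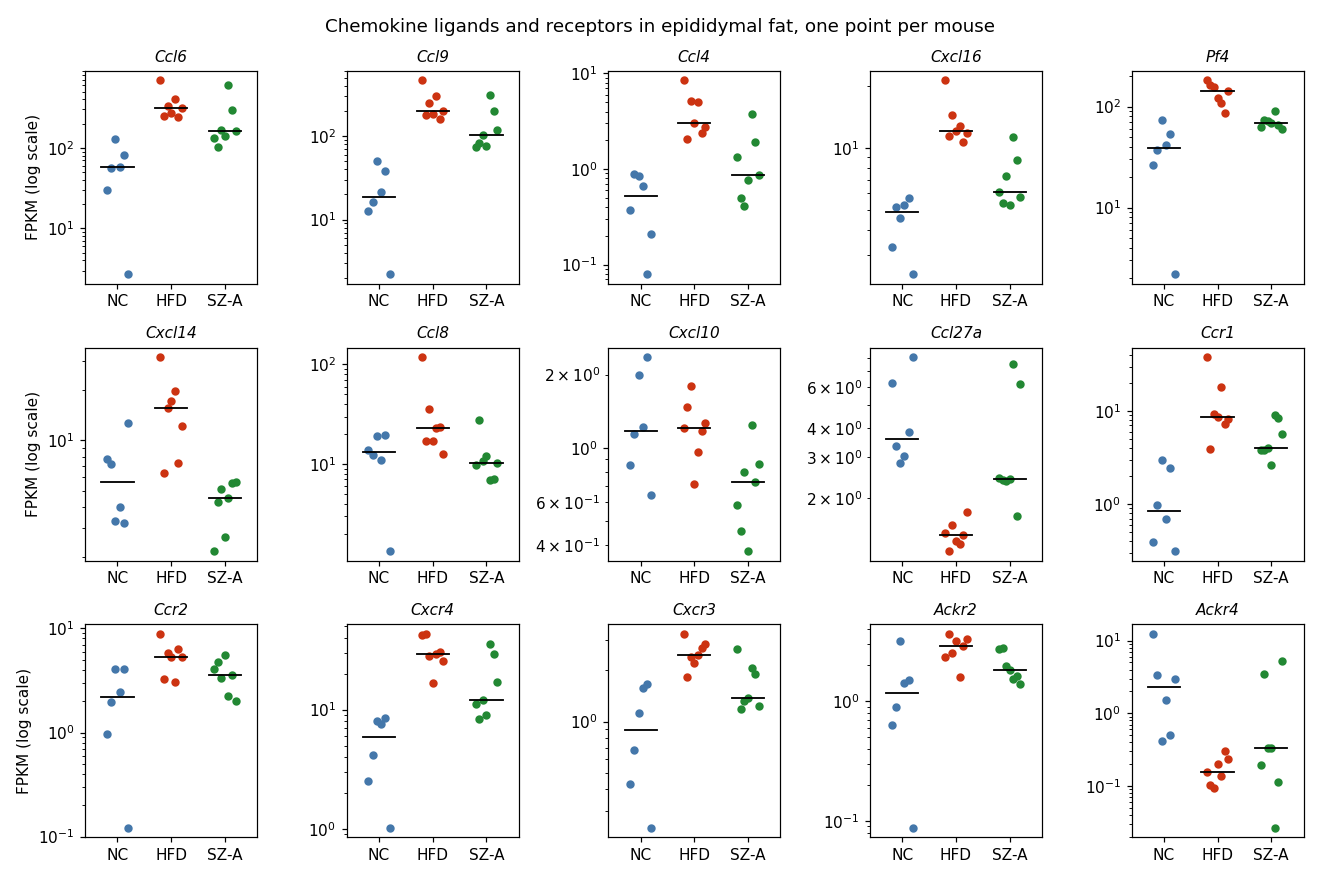
FPKM on a log scale (vertical axes, a separate scale in each panel) of 15 chemokine ligands and receptors in NC (blue, n = 6), HFD (red, n = 7) and SZ-A (green, n = 7) mice, with 1 point per mouse in the order of the replicate number and a line at the group median. The SZ-A points of Cxcl14 all lie below the HFD points, and the last NC point, replicate 6, is the lowest NC point in 11 of the 15 panels.

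Ccl8 and Cxcl10 were not called with HFD and were lower with SZ-A, both close to the threshold. Ccl8, a chemoattractant for monocytes and, through Ccr8 in mice, for some T cells, was at 1.34 to 19.4 FPKM in NC, 12.5 to 118.0 in the HFD group and 6.88 to 27.4 in SZ-A mice. Its HFD difference from NC was 1.25 (interval 0.06 to 2.44, limma adjusted p = 0.0863), with 4 of 7 HFD mice above every NC mouse. HFD replicate 1, at 118.0 FPKM, was far above the HFD median of 23.1, and 6 of 7 SZ-A mice were below every HFD mouse. The SZ-A difference was -1.20 (SE 0.41, limma adjusted p = 0.0472), and it was -0.85 with an adjusted p of 0.0569 without HFD replicate 1. Cxcl10, induced by interferons and a ligand of Cxcr3, was at 1.37 ± 0.669 FPKM in NC (n = 6), 1.23 ± 0.347 in HFD (n = 7) and 0.721 ± 0.290 in SZ-A mice (n = 7), on 15 to 101 reads. Its SZ-A difference was -0.37 (SE 0.12, limma adjusted p = 0.0378), with the 2 groups overlapping in 4 SZ-A mice. Leaving out single mice ended the call for Ccl8 in 10 of 14 fits (adjusted p up to 0.0902, without HFD replicate 3), all except those without HFD replicates 2, 4 or 7 or SZ-A replicate 2. For Cxcl10 it did so in 9 of 14 (up to 0.0813, also without HFD replicate 3), all except those without HFD replicates 4 or 5 or SZ-A replicates 5, 6 or 7.

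Ccl27a and Ccl25 went the other way from the myeloid ligands. Ccl27a, a skin chemokine that acts on Ccr10, ranged from 2.83 to 8.03 FPKM in NC mice (median 3.59), from 1.18 to 1.74 in HFD mice (median 1.39) and from 1.68 to 7.51 in SZ-A mice (median 2.42). HFD mice lay below all NC mice, and 6 of 7 SZ-A mice lay above all HFD mice. It fell with HFD (log2 -1.13, SE 0.19, limma adjusted p = 3.4e-04) and was the only one of the 31 genes to rise with SZ-A (log2 0.79, SE 0.23, adjusted p = 0.0208 by limma). Ccl27a has near-identical copies in the mouse genome, so its count is uncertain. Ccl25, a gut and thymus chemokine and ligand of Ccr9, was low in all groups, at 0.601 ± 0.0615 FPKM in NC, 0.328 ± 0.0943 in the HFD group and 0.553 ± 0.277 in SZ-A mice. Every HFD mouse was below every NC mouse (log2 -0.27, SE 0.06, limma adjusted p = 0.00337). The SZ-A difference of 0.21 did not pass the test (interval 0.0021 to 0.42, limma adjusted p = 0.129), with 5 of 7 SZ-A mice above every HFD mouse.

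Neutrophil chemoattractants were scarce. Cxcl2, a ligand of Cxcr2, was at 0.0300 to 0.813 FPKM in NC mice (1 to 27 reads) and 0.592 to 2.57 in HFD mice (24 to 82 reads). It rose with HFD (log2 0.81, SE 0.18, limma adjusted p = 0.0030), with 6 of 7 HFD mice above every NC mouse, and in SZ-A mice spanned 0.368 to 4.06 FPKM, the highest value being SZ-A replicate 5. The SZ-A difference from HFD was 0.07 with an interval of -0.47 to 0.61, so a change of either sign within that range remains possible. Its neighbour Cxcl1, with the same receptor, did not pass the test with HFD (log2 0.52, limma adjusted p = 0.21) over a single high NC mouse, replicate 3 at 5.61 FPKM. Without that mouse the difference was 0.87 (adjusted p = 4.9e-04).

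Several abundant stromal ligands gave no call. Ccl11, the eosinophil attractant eotaxin, was among the most abundant ligands, at 0.888 to 71.1 FPKM in NC mice, 52.5 to 100.6 in the HFD group and 39.7 to 94.9 in SZ-A mice. Its HFD difference was 1.60 (SE 0.67, limma adjusted p = 0.0704) and fell to 0.87 without NC replicate 6, where it passed the test (adjusted p = 0.0354). It also passed without NC replicate 3 (1.92, adjusted p = 0.0336). With SZ-A the difference from HFD was -0.11, with an interval of -0.55 to 0.33. Cxcl12, which stromal cells make to hold leukocytes that carry Cxcr4, had medians of 29.2, 29.4 and 32.7 FPKM in NC, HFD and SZ-A mice, and the intervals were -0.73 to 1.70 for HFD against NC and -0.47 to 0.33 for SZ-A against HFD.

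The interferon-induced Cxcl9 had medians of 17.4, 11.9 and 12.96 FPKM in NC, HFD and SZ-A mice. Across NC mice it ran from 0.637 to 29.3 FPKM, the lowest being replicate 6, and the HFD difference of -0.28 (limma adjusted p = 0.722) became -0.87 without that mouse (adjusted p = 0.0374). Cxcl13, which draws B cells into follicles through Cxcr5, varied most within groups, from 0.418 to 39.7 FPKM in NC, 0.530 to 29.9 in the HFD group and 0.749 to 22.7 in SZ-A mice. In each group 1 mouse stood well above the median (NC replicate 5, HFD replicate 6 and SZ-A replicate 1), and neither comparison with HFD passed the test. Cxcr5, the receptor of Cxcl13, was highest in the same mouse of each group, at 0.773, 1.53 and 0.738 FPKM. Cx3cl1, fractalkine, had medians of 5.23, 3.43 and 2.68 FPKM, and Ccl12, a monocyte attractant on 2 to 35 reads, medians of 1.04, 1.67 and 1.42 FPKM. Ccl28, a mucosal chemokine that shares Ccr10 with Ccl27a, was at 0.0536 to 0.580 FPKM in NC and HFD mice and reached 1.45, 2.03 and 6.15 FPKM in SZ-A replicates 7, 3 and 2.

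Many chemokine genes lie side by side in the mouse genome. Over all genes, 21.0% rose with HFD and 13.3% fell with SZ-A. The counts below are too small to be read as results about a stretch of the genome. On GRCm38, Ccl5, Ccl9, Ccl6 and Ccl4 occupy chr11:83525778-83664683, and all 4 rose with HFD. Ccl11, Ccl12 and Ccl8 lie at chr11:82057823-82116799, and 0 of these 3 rose at an adjusted p under 0.05 by limma, although Ccl11 and Ccl8 were below an unadjusted p of 0.05. Cxcl1, Cxcl2 and Pf4 share chr5:90772435-90905938, where Pf4 fell with SZ-A and the other 2 did not pass the test. Cxcl9 and Cxcl10 lie at chr5:92321347-92348889, where Cxcl10 was lower with SZ-A and the estimate for Cxcl9 was 0.41 above HFD. The receptors Ccr1 and Ccr2 lie with Cxcr6 at chr9:123806475-124113557, where Ccr1 and Ccr2 rose with HFD and Cxcr6 did not pass the test.

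Promoters from RefSeq (GRCm38.p6) were found for 25 of the 31 genes and not for Ccl4, Ccl5, Ccl11, Cxcl16, Ccr10 and Cxcr5. The 250 bases before each start were searched on both strands for the letters of a kappaB element, which NF-kappaB binds (GGG, any pair of bases, TT, any base, CC), and of an interferon-stimulated response element (GAAA, any pair of bases, GAAA). The kappaB letters were in 5 of the 25 (20%), against 4.11% of 32851 mouse promoters, and the interferon element letters in 2 (8%), against 2.98%. Of the CRE letters TGACGTCA there were 0 matches in the 25 (1.55% of all promoters), and the AP-1 letters TGANTCA were in Ccl9, Cxcl10 and Ccl27a (12%, against 6.75%). A match is a description of these letters and not a site in use. The windows below are shown because the genes that carry them did not all move alike. Ccl9 and Cxcl14 rose with HFD and fell with SZ-A. Cxcl2 was called only with HFD, where it rose, and Cxcl10 only with SZ-A, where it fell. Cxcl1 and Cxcl9 did not pass either test. Each is written 5′ to 3′ along the gene's strand, in lower case with 1 match in capitals.
Ccl9, kappaB on the opposite strand, chr11:83578637-83578701, minus strand: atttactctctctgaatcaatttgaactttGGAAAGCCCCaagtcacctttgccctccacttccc
Cxcl2, kappaB, chr5:90903772-90903841, plus strand: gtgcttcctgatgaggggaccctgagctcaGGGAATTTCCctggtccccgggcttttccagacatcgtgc
Cxcl1, kappaB, chr5:90891144-90891213, plus strand: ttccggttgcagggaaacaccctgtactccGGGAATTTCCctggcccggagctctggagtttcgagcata
Cxcl9, kappaB, chr5:92328170-92328239, minus strand: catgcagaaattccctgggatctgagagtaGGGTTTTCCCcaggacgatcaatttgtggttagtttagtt
Cxcl10, kappaB, chr5:92348953-92349022, minus strand: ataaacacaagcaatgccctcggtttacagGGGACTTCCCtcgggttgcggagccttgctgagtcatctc
Cxcl10, interferon element, chr5:92349063-92349132, minus strand: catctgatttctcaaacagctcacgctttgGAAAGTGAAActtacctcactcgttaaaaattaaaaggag
Cxcl14, interferon element, chr13:56296684-56296753, minus strand: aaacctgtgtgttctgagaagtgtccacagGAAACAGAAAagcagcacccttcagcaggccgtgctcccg
The match in capitals in Cxcl1 and in Cxcl2 is the same run of 10 letters, while only Cxcl2 of this pair passed the test with HFD. Each of the 2 promoters holds a further kappaB match inside the window shown, GGAAACACCC in Cxcl1 on the opposite strand and GGGCTTTTCC in Cxcl2, and these 2 runs differ.

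Among the 8 receptors, 4 rose with HFD (Ccr1, Ccr2, Cxcr3 and Cxcr4) and 2 of these fell with SZ-A (Cxcr3 and Cxcr4). Over all genes, 21.0% rose with HFD and 13.3% fell with SZ-A, and counts among 8 genes are not read as a result about the receptors. Ccr1, the receptor of Ccl5, Ccl6 and Ccl9 on monocytes and neutrophils, ranged from 0.315 to 2.99 FPKM in NC (median 0.838), 3.96 to 37.8 in HFD (median 8.64) and 2.63 to 9.04 in SZ-A mice (median 4.01). HFD replicate 1 held the highest value, and all HFD mice were above all NC mice. Ccr1 was 10.3-fold higher with HFD (log2 2.47, SE 0.43, limma adjusted p = 4.9e-04), and its SZ-A difference of -0.95 did not pass the test (interval -1.75 to -0.15, limma adjusted p = 0.0802). It passed without HFD replicate 2 (-1.16, adjusted p = 0.0351) or SZ-A replicate 5 (-1.08, adjusted p = 0.0499). SZ-A mice were 4.13-fold above NC mice (log2 1.51, SE 0.31, limma adjusted p = 0.0129).

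Cxcr4, the receptor of Cxcl12 on most leukocytes, was the most abundant receptor. It was at 1.02 to 8.46 FPKM in NC (median 5.90), 16.7 to 42.9 in HFD (median 29.1) and 8.29 to 35.2 in SZ-A mice (median 11.9). HFD was 5.78-fold above NC (log2 2.47, SE 0.35, limma adjusted p = 1.1e-04) with no overlap. Only 4 of the 7 SZ-A mice lay below all HFD mice, and replicates 5 and 6, at 35.2 and 29.1 FPKM, lay at or above the HFD median. The SZ-A difference was -0.91 (SE 0.31, limma adjusted p = 0.0433), and 11 of 14 fits without 1 mouse lost the call (adjusted p up to 0.09, without HFD replicate 1), all except those without HFD replicate 4, SZ-A replicate 5 or SZ-A replicate 6.

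Cxcr3, which marks activated T and NK cells and binds Cxcl9 and Cxcl10, was at 0.952 ± 0.599 FPKM in NC (n = 6), 2.53 ± 0.467 in HFD (n = 7) and 1.68 ± 0.556 in SZ-A mice (n = 7). It rose with HFD without overlap (log2 0.90, SE 0.18, limma adjusted p = 0.00138) and fell with SZ-A (log2 -0.41, SE 0.13, adjusted p = 0.0339 by limma), where 4 of 7 SZ-A mice were below all HFD mice. The second call was lost in 9 of 14 fits that left out a mouse (adjusted p up to 0.0733, without HFD replicate 1), all except those without HFD replicates 2 or 4 or SZ-A replicates 1, 5 or 6. Ccr2, which brings monocytes out of the bone marrow, was at 0.122 to 4.10 FPKM in NC, 3.07 to 8.81 in the HFD group and 1.99 to 5.60 in SZ-A mice. It rose with HFD (log2 1.09, SE 0.34, limma adjusted p = 0.019), and the SZ-A difference of -0.45 (interval -0.91 to 0.01) did not pass the test.

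The remaining 4 receptors did not pass any of the 3 tests. Cxcr6, on T and NKT cells, had medians of 1.05, 0.975 and 1.63 FPKM in NC, HFD and SZ-A mice. Cx3cr1, on resident macrophages and patrolling monocytes, had medians of 0.601, 0.836 and 0.446 FPKM, Cxcr5 of 0.389, 0.245 and 0.256 FPKM and Ccr10 of 0.235, 0.376 and 0.212 FPKM. Ccr10 rested on 2 to 19 reads, Cxcr5 on 1 to 91 and Cx3cr1 on 3 to 175, so small changes were not detectable at this depth.

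The 3 atypical receptors moved differently. Ackr2, which degrades inflammatory CC chemokines, rose with HFD from 1.29 ± 1.07 FPKM (n = 6) to 2.79 ± 0.693 (n = 7; log2 0.83, SE 0.25, limma adjusted p = 0.0186), and its SZ-A level of 1.98 ± 0.558 FPKM did not pass the test against HFD (log2 -0.34, interval -0.65 to -0.04, limma adjusted p = 0.097). Ackr3, which scavenges Cxcl12, had medians of 11.9, 16.4 and 14.4 FPKM in NC, HFD and SZ-A mice and gave no call.

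Ackr4, which removes Ccl19, Ccl21 and Ccl25, fell with HFD. Its values were 0.417 to 12.3 FPKM in NC (median 2.27), 0.0926 to 0.302 in HFD (median 0.157) and 0.0267 to 5.29 in SZ-A mice (median 0.333). All HFD mice were below all NC mice (log2 -1.48, SE 0.41, limma adjusted p = 0.0107). In the SZ-A group replicates 2 and 7, at 3.46 and 5.29 FPKM, were far above every HFD mouse, while replicates 5 and 6 were at or near the lowest values. The SZ-A difference was 0.64 (interval -0.13 to 1.41, limma adjusted p = 0.21). Of its exon bases, 8.90% overlap Acad11 on the other strand.

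Epithelial markers moved with several of these genes. Of 7 epithelial markers, Cdh1 and Krt18 were in the table, and their sum was 5.86 to 523.0 FPKM in NC mice, 0.718 to 3.30 in HFD mice and 0.05 to 194.6 in SZ-A mice. It was highest in NC replicates 6 and 1 (523.0 and 510.3) and, among SZ-A mice, in replicates 7, 2 and 3 (194.6, 147.2 and 32.6). Ackr4 was highest in NC replicate 1 and SZ-A replicate 7, Ccl28 in SZ-A replicates 2, 3 and 7, and Cx3cl1 in NC replicate 6, at 19.9 FPKM. A limit of at most 100 FPKM of these markers, chosen after the values were seen, kept 3 NC, 7 HFD and 5 SZ-A mice. The 3 NC mice kept, at 5.86, 69.0 and 68.8 FPKM, were all above every HFD mouse. The limit therefore did not make NC and HFD mice equal in these markers. Among the mice kept, Ackr4 was lower with HFD by 0.58 on the log2 scale (limma adjusted p = 0.00985), and Ccl27a by 0.81 (adjusted p = 1.3e-04). In the same mice Ccl27a rose with SZ-A (log2 0.70, limma adjusted p = 0.035), and the Ackr4 difference between SZ-A and HFD was 0.02. Ackr2 and Ccr2 lost the HFD call there (log2 0.34 and 0.47, limma adjusted p = 0.209 and 0.161), and Ccl9 and Ccr1 lost theirs between SZ-A and NC (log2 1.86 and 1.10, limma adjusted p = 0.0975 and 0.179), with 3 NC mice left. Between SZ-A and HFD, Ccl9, Cxcl10, Cxcr3 and Cxcr4 lost their calls (log2 -0.85, -0.36, -0.31 and -0.78, limma adjusted p = 0.108, 0.0645, 0.103 and 0.0933). Cxcl9 was lower in HFD than in NC mice under this limit (log2 -1.26, limma adjusted p = 0.00829). The HFD differences of Ccl9, Ccl6, Cxcr4 and Pf4 kept their calls and were smaller, at 2.71, 1.98, 1.75 and 1.26 on the log2 scale. Some differences were larger. Cxcl14 in HFD against NC mice was at 1.73 (limma adjusted p = 0.00391) and Ccl8 in SZ-A against HFD mice at -1.44 (limma adjusted p = 0.0268). The part of epithelial tissue in these values was not tested.

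**Figure D3:**
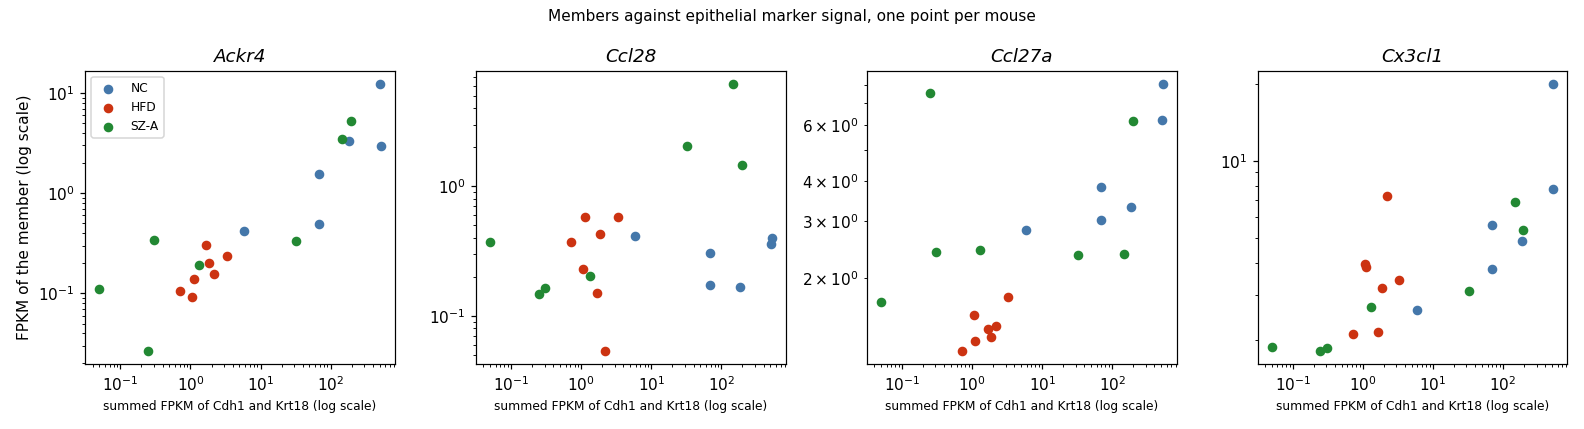
FPKM of Ackr4, Ccl28, Ccl27a and Cx3cl1 (vertical axes, log scale) against the summed FPKM of Cdh1 and Krt18 (horizontal axes, log scale), with 1 point per mouse, NC in blue, HFD in red and SZ-A in green. The 7 HFD points lie between 0.718 and 3.30 FPKM on the horizontal axis, and the highest Ackr4 and Ccl28 points lie above 100 FPKM.

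Macrophage markers moved with most of the called genes. All 12 macrophage markers were in the table, and their sum ran from 81.6 to 805.2 FPKM in NC (median 499.3), from 3259 to 8907 in HFD (median 4456) and from 1357 to 4515 in SZ-A mice (median 1590). Of the 12, 11 rose with HFD (21.0% of all genes did), 10 fell with SZ-A (13.3%) and 8 were higher in SZ-A than in NC mice (4.15%). SZ-A replicates 5 and 6, at 4515 and 3373 FPKM, were the 2 within the HFD range of this sum, as they were for Ccl6 and Ccl9. Lyz2 made up 55.6% of the sum. The part of macrophage number in the chemokine values was not tested.

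Set against that sum, 29 of the 31 genes had their highest median in NC mice, and the other 2, Ccl9 and Cxcl2, had it in SZ-A mice. The sum itself was lowest in NC mice (medians of 499.3, 4456 and 1590 FPKM in NC, HFD and SZ-A mice). Any gene that rises less than the sum therefore tends to have its highest ratio in NC mice. The share over all genes was not computed, so the count is not read as a result about the 31. Ccl9 came to 27.3 to 66.2 FPKM per 1000 FPKM of macrophage markers in NC mice (median 41.0), 39.9 to 51.8 in HFD mice (median 46.7) and 51.4 to 73.6 in SZ-A mice (median 59.2). Ccr1 came to 1.24 to 4.26 per 1000 in NC (median 2.97), 0.888 to 4.25 in HFD (median 2.10) and 1.80 to 3.59 in SZ-A mice (median 2.52). Pf4 came to 26.8 to 94.3 in NC (median 88.0), 16.6 to 36.5 in HFD (median 29.0) and 19.3 to 53.9 in SZ-A mice (median 41.8). The 3 ranges of Ccr1 overlapped, and no test was made of these ratios.

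**Figure D4:**
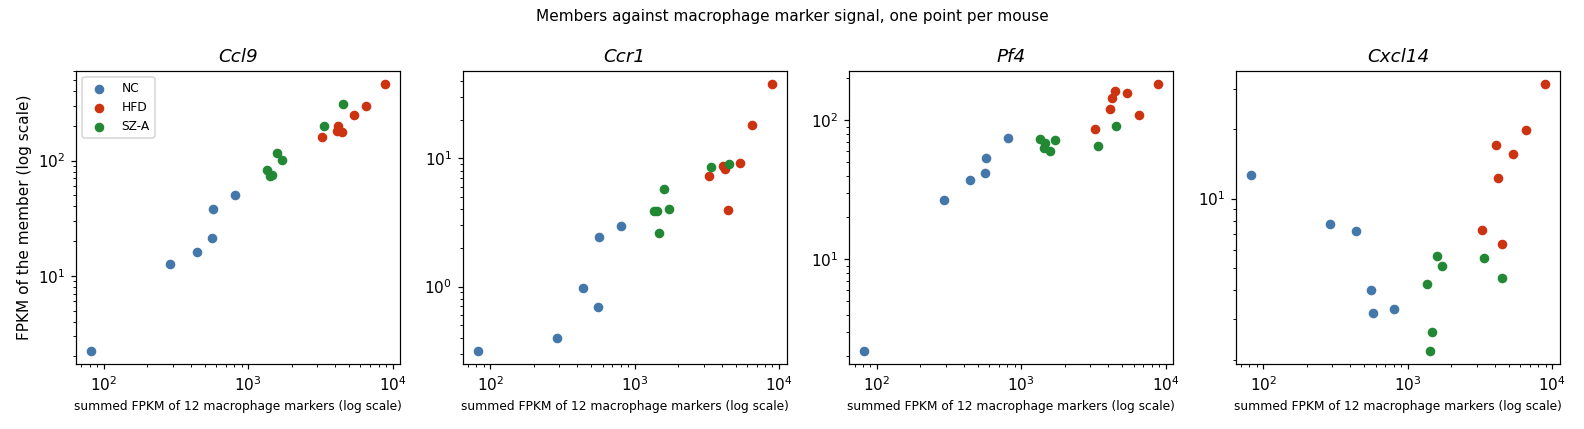
FPKM of Ccl9, Ccr1, Pf4 and Cxcl14 (vertical axes, log scale) against the summed FPKM of 12 macrophage markers (horizontal axes, log scale), with 1 point per mouse, NC in blue, HFD in red and SZ-A in green. Ccl9 climbs with the marker sum from 2.23 FPKM in NC replicate 6 to 461.3 FPKM in HFD replicate 1. The 7 SZ-A points of Cxcl14 lie between 2.18 and 5.65 FPKM over marker sums of 1357 to 4515. Its 7 HFD points lie between 6.35 and 31.4 FPKM over marker sums of 3259 to 8907, and HFD replicate 1 is highest in both.

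Markers of other cell types were read in the same way. Of 2 mesothelial markers in the table, 1 fell with HFD and 0 were called with SZ-A by limma, and the medians of their sum were 66.4, 6.61 and 6.89 FPKM in NC, HFD and SZ-A mice. Of 11 T and NK cell markers in the table, 2 rose with HFD and 2 fell with SZ-A, shares near those of all genes (21.0% and 13.3%). The medians of their sum were 8.24, 12.7 and 9.63 FPKM in NC, HFD and SZ-A mice. The highest sums were in NC replicate 6 (131.8 FPKM) and SZ-A replicate 2 (36.9), against at most 22.4 in HFD mice. Of 7 fibroblast and progenitor markers, 5 rose and 1 fell with HFD (21.0% and 20.1% of all genes did) and 6 fell with SZ-A (13.3%). The medians of their sum were 250.7, 612.1 and 345.2 FPKM in NC, HFD and SZ-A mice. Of 8 neutrophil markers 2 were in the table, and both rose with HFD. Their part in Cxcr3, Cxcl14 or Cxcl2 was not tested.

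Ligands and receptors were then matched by textbook pairs. There were 13 signalling pairs among the 31 genes, of 13 ligands and 8 receptors, so receptors with several ligands are counted more than once. With HFD both partners rose in 3 pairs (Ccr1 with Ccl5, Ccl6 and Ccl9), only the receptor was called in 5, only the ligand in 2 and neither in 3. With SZ-A both partners fell in 1 pair, Cxcl10 with Cxcr3. Only the receptor was called in 2 pairs, only the ligand in 4 and neither in 6. Between SZ-A and NC mice only Ccl9 and Ccr1 were both higher. Over all genes, 21.0% rose and 20.1% fell with HFD, and 13.3% fell and 9.47% rose with SZ-A. Between SZ-A and NC mice 4.15% were higher. The share of pairs over all genes was not computed, so the pair counts are a description only.

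Pairs differed in which partner moved. For Cxcl12 and Cxcr4 only the receptor was called, up with HFD by 2.47 and down with SZ-A by 0.91 on the log2 scale, beside ligand differences of 0.48 and -0.07. For Cxcl16 and Cxcr6 only the ligand was called, by 1.43 and -0.85, beside receptor differences of 0.07 and 0.19. Cxcl9 and Cxcl10 gave no call with HFD, while their receptor Cxcr3 rose. Neither partner of Cxcl13 and Cxcr5, of Cx3cl1 and Cx3cr1 or of Ccl28 and Ccr10 was called in any of the 3 comparisons. Among the 6 atypical pairs, Ackr2 rose together with its ligands Ccl4 and Ccl5 under HFD, and Ackr4 fell together with Ccl25.

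**Figure D5:**
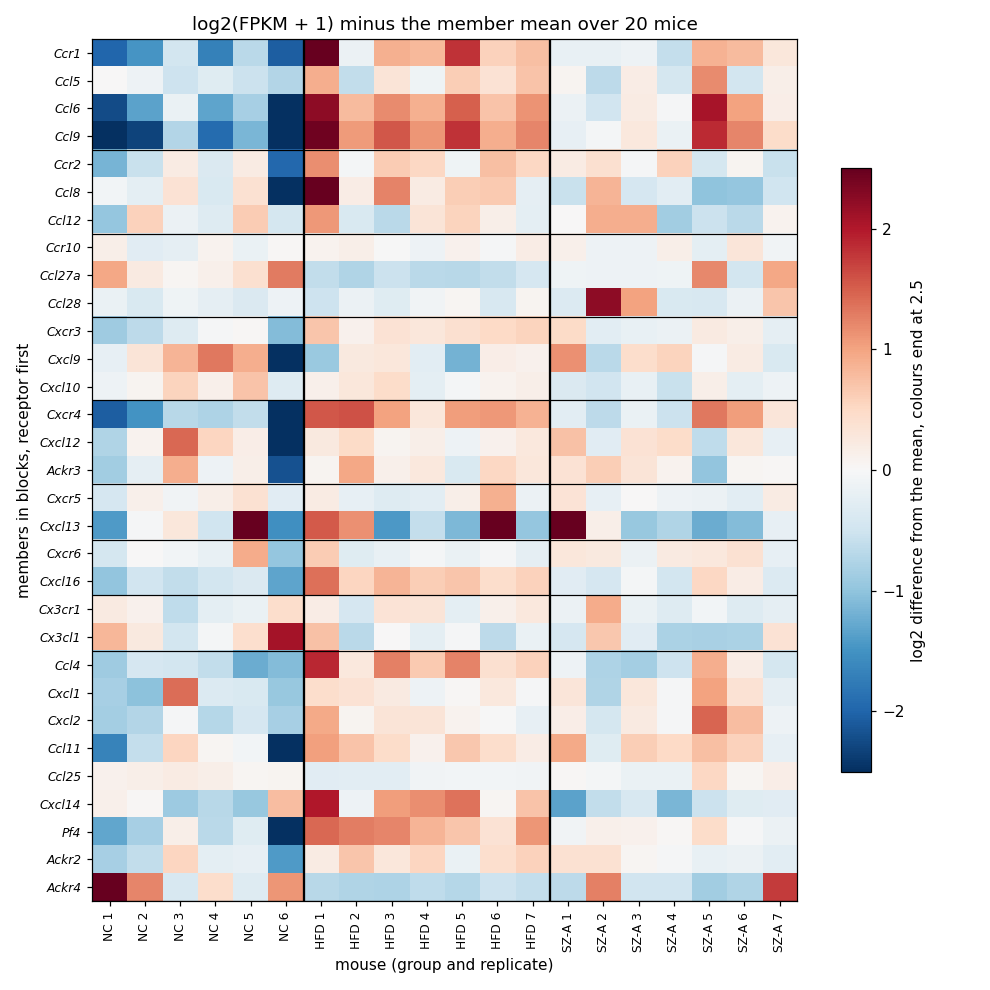
Log2(FPKM + 1) minus the gene's mean over the 20 mice (colour, with the scale ending at 2.5 in either direction) for the 31 genes in rows and the mice in columns, NC, HFD and SZ-A from left to right. Horizontal lines separate receptors with their ligands, and the last block holds genes without a signalling partner among the 31; the rows of Ccr1, Ccl6 and Ccl9 are mostly blue in NC and red in HFD mice, and SZ-A replicates 5 and 6 are the reddest SZ-A columns for Ccl6, Ccl9 and Cxcr4.

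Downstream of the receptors, 71 of 76 listed signalling genes were tested. With HFD 40 rose and 6 fell (median log2 fold change 0.71, against -0.04 over all genes), where 21.0% and 20.1% of all genes did. With SZ-A 32 fell and 2 rose (median -0.39, against 0.03), where 13.3% and 9.47% of all genes did. The clearest block was the 17 Rac activators and actin regulators, which drive the movement of the cell front. Of these, 15 rose with HFD and 14 fell with SZ-A, and 9 were higher in SZ-A than in NC mice (4.15% of all genes were). Dock2, a Rac activator of leukocytes, was at 1.04 ± 0.551, 22.2 ± 4.77 and 7.90 ± 4.34 FPKM in NC, HFD and SZ-A mice (SZ-A against HFD log2 -1.47, SE 0.23, limma adjusted p = 9.8e-04). Rac2, the Rac GTPase of blood cells, fell by 1.42, and Coro1a, which binds actin, by 1.32 (limma adjusted p = 0.00504 and 0.00124).

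The counts in the next sets stand beside shares over all genes of 21.0% risen and 20.1% fallen with HFD. With SZ-A, 13.3% of all genes fell and 9.47% rose. The sets are small, so counts of a few genes are not read as results about a set. Of 13 G protein subunits tested, 4 rose and 1 fell with HFD, and 4 fell and 1 rose with SZ-A. Gng2, a gamma subunit, was at 2.54 ± 1.05, 17.4 ± 4.03 and 8.57 ± 3.11 FPKM and fell by 0.97 with SZ-A (limma adjusted p = 0.00294), and the inhibitory subunit Gnai2 fell by 0.47 and the beta subunit Gnb4 by 0.47 (adjusted p = 0.0131 and 0.00605, limma). Of 13 phospholipase C and PI3 kinase genes, 8 rose and 2 fell with HFD, and 6 fell with SZ-A. Pik3cd and Pik3cg, the leukocyte PI3 kinases, fell by 1.14 and 1.09, and Prkcb, a protein kinase C, by 1.29 (limma adjusted p = 9.8e-04, 3.0e-04 and 0.00319). Of 13 tyrosine kinases and adaptors, 6 rose and 1 fell with HFD, and 4 fell and 1 rose with SZ-A. Lyn and Fyn, tyrosine kinases of the Src family, fell by 0.77 and 0.71, and Ptk2b, a focal adhesion kinase of leukocytes, by 0.67 (limma adjusted p = 0.00189, 0.00215 and 0.00199). Of 9 RGS genes, 3 rose and 1 fell with HFD, and 4 fell with SZ-A. Rgs1, Rgs10 and Rgs2, which shorten G protein signals, fell by 1.34, 1.13 and 1.18, and Rgs2 had not passed the test with HFD (log2 0.37, limma adjusted p = 0.541). The 6 receptor kinases and arrestins gave 4 rises with HFD and 0 calls with SZ-A by limma, with a median of -0.27 for the latter.

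Receptors for other attractants and enzymes that trim chemokines gave larger values than most chemokine genes. Of 13 other chemoattractant receptors tested, 8 rose with HFD, and 6 fell and 2 rose with SZ-A. Over all genes, 21.0% rose and 20.1% fell with HFD, and 13.3% fell and 9.47% rose with SZ-A. The complement receptors C3ar1 and C5ar1 were at 2.77 ± 1.86 and 5.69 ± 3.50 FPKM in NC, 102.7 ± 33.7 and 103.9 ± 31.0 in the HFD group and 31.5 ± 18.1 and 37.7 ± 20.9 in SZ-A mice. They fell with SZ-A by 1.78 and 1.55 on the log2 scale, and Ptafr, the receptor of platelet-activating factor, by 1.15 (limma adjusted p = 0.00121, 0.00229 and 0.00899). Of 10 processing genes tested, 6 rose and 2 fell with HFD, and 6 fell and 1 rose with SZ-A. Mmp12, a macrophage protease, was at 3.01 ± 3.42, 495.5 ± 428 and 112.5 ± 69.6 FPKM (SZ-A against HFD log2 -1.93, SE 0.48, limma adjusted p = 0.0107). Mmp2 fell by 1.85 and Sdc3, a syndecan whose sugar chains can hold chemokines, by 1.38 (limma adjusted p = 1.1e-04 and 0.00114).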

How the data were processed

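RNA from eWAT of 20 mice was purified with poly-T beads, and unstranded libraries were sequenced as paired-end reads. Alignment by the authors used HISAT2 and GRCm38, and the submitters' processing notes name featureCounts 1.5.0-p3. The annotation release is not given in the sources used here. The deposited values are FPKM, scaled by the authors to gene length and library size, and every gene in the table is above 0 in all mice. Counts were not analysed here, so the study's DESeq2 test was not used. Reads behind each value were recovered from FPKM and GENCODE exon lengths (95.9% to 96.3% of values under 1000 reads were whole within 0.01 reads).

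Groups came from the sample labels (6 NC, 7 HFD, 7 SZ-A). The labels give no pairing of mice by replicate number, so the main fits treated mice as unpaired. Each pair of groups was compared with limma 3.58.1 (lmFit and eBayes with a trend) in R 4.3.3. Values entered as log2(FPKM + 1), genes whose mean over both groups was under 0.1 FPKM were dropped, with Benjamini-Hochberg adjustment over all genes tested, and fold changes of low genes are understated on that scale. Intervals are 95% intervals of the fit. Exact two-sided permutation tests used every regrouping of the mice. The steps were tested on simulated data. Tables were made with Python 3.11.15 and pandas 2.3.3.

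A gene that met the symbol rule and a signalling gene are not reported here and are left out of every count of these lists. All other members are named. From each role of the signalling, attractant and processing lists, the 3 genes with the largest change among those with an adjusted p under 0.05 in SZ-A against HFD are named. Members, lists and pairs were chosen with earlier results of these data known. Alternatives were a pseudocount of 0.1, no filter, a mean of 1 FPKM, median-ratio scaling, quantile normalization, all 3 groups in a fit, the replicate number as a block, array quality weights, voom on recovered reads, the log2 threshold of 1.5, each mouse left out and, added after seeing the data, a limit on epithelial markers.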

Additional observations from a re-analysis of the deposited data

Results flagged for a closer look

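In 9 of 93 sets of a gene in a group, 1 mouse lay farther from the rest than Dixon's 95% limit on log2(FPKM + 1) allows, and chance gives about 1 in 20. Of the 9, 3 were NC replicate 6, which was low for Ccl8 (1.34 FPKM), Cxcl9 (0.637) and Pf4 (2.19), and in the same mouse adipocyte markers summed to 234.3 FPKM. SZ-A replicate 2 was high for Ccl8 (27.4 FPKM) and Cx3cr1 (2.11). SZ-A replicate 5 was low for Ackr3 (6.36 FPKM), the scavenger of Cxcl12, and SZ-A replicate 1 was high for Cxcl13 (22.7 FPKM). NC replicate 3 was high for Cxcl1, at 5.61 FPKM, and HFD replicate 1 for Cxcr6, at 2.45 FPKM.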

How the results depend on the processing

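Under other settings, 52 results of a gene in a comparison were followed: those with an unadjusted limma p under 0.1 or any call. The other 41 gave 0 calls under any setting, and 25 of them changed sign under at least 1. Of the fits of the 52 under other settings, 463 kept direction and side of the threshold, 28 lost a call and 19 gained one. A further 2 changed direction without a call, both among mice with at most 100 FPKM of epithelial markers. There, Cxcl1 in HFD against NC was at -0.060 and Ackr2 in SZ-A against NC at -0.017. With the log2 threshold of 1.5, the calls over all genes were 1172 for HFD against NC, 127 for SZ-A against HFD and 263 for SZ-A against NC, and the members called were 6 higher and 0 lower with HFD and 0 higher and 1 lower with SZ-A. With all 3 groups in the fit, 2089 genes and 3 lower members were called for SZ-A against HFD, and 1527 genes and 5 higher members for SZ-A against NC. Array quality weights gave 6403 genes for SZ-A against HFD, and 2639 genes, 6 higher and 1 lower members for SZ-A against NC. The limit on epithelial markers gave 5 lower members for SZ-A against HFD, and 180 genes and 0 higher members for SZ-A against NC, with 3 NC mice left. The cause was not tested. Same-numbered mice correlated between -0.41 and 0.58 in their deviations, and replicate 4 was above 0 in all 3 comparisons (0.297, 0.371 and 0.584). Mice of different numbers were not compared, so these values cannot tell whether the numbers mark something shared. With the replicate block, 5 members were lower in SZ-A against HFD, and 167 genes and 0 higher members were called for SZ-A against NC.

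With 1 mouse left out, the genes called ran from 5237 to 6645 for HFD against NC, 2352 to 4296 for SZ-A against HFD and 423 to 860 for SZ-A against NC. Members higher with HFD ran from 12 to 15 and lower from 3 to 4. Members lower with SZ-A ran from 4 to 10, with 4 without HFD replicate 1, HFD replicate 3, SZ-A replicate 3 or SZ-A replicate 4, and 5 without HFD replicate 6, HFD replicate 7, SZ-A replicate 1, SZ-A replicate 2 or SZ-A replicate 7. Against NC, members higher in SZ-A mice ran from 2 to 5, the 5 without NC replicate 3 and 4 without SZ-A replicate 2. In these fits Ccl4, Ccl27a, Cxcl14, Cxcl16 and Pf4 kept their calls in SZ-A against HFD, while Ccl8, Ccl9, Cxcl10, Cxcr3 and Cxcr4 did not. Genes on few reads, such as Ccr10, Cxcr5 and Ccl12, limit what small changes can be seen.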
